A study of Mus musculus with 8 samples.

Results

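The type I interferon response genes are a list of 40 genes that cells switch on through the receptor for interferon-alpha and interferon-beta, together with the receptor chains and transcription factors that carry the signal. Of these, 39 were measured among the 29915 genes of the array table, each through the probe set of that symbol with the highest mean over the 8 arrays. Ifi44 had no tested probe set under its symbol and was not analysed here. Genome-wide expression was measured in LT-HSC (long-term haematopoietic stem cells) of mice, the cells that sustain blood formation over the life of the animal. They were sorted from bone marrow as Lin- cKit+ Sca+ Flk2- CD48- CD150+ cells. The 4 groups were CD169DTR/+ mice given 2 Gy of total body irradiation, CD169DTR/+ mice left non-irradiated, wild-type (WT) mice given 2 Gy, and WT mice left non-irradiated. Each group had 2 arrays. Every mouse, WT included, had been injected with diphtheria toxin 72 h before the real or sham irradiation, and cells were taken on day 5 after it. CD169DTR/+ mice are heterozygous for a diphtheria toxin receptor driven by the gene of CD169 (Siglec1), so the toxin depletes CD169+ macrophages in them and not in WT mice. Because every mouse was given the toxin, depletion and the CD169DTR/+ genotype go together and cannot be told apart here. The 2 replicates came from distinct experiments, and the labels do not say how many mice gave the cells of an array. P-values therefore measure the spread between these arrays. A change in the RNA per cell and a change in the make-up of the sorted cells cannot be told apart in such bulk samples.

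Type I interferons bind a receptor made of Ifnar1 and Ifnar2, whose Janus kinases pass the signal on. Stat2 and Irf9 then act in a complex that binds the interferon-stimulated response element (ISRE) in the promoters of antiviral genes. In bone marrow, acute interferon-alpha is known to drive dormant haematopoietic stem cells into division, and macrophages and plasmacytoid dendritic cells are among the known sources of type I interferon.

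Promoters of 5 members are shown because they hold the core of the element through which the pathway acts, and because these were the members with such a core and the smallest unadjusted p for the effect of 2 Gy in CD169DTR/+ mice. The sequences are RefSeq's for the mouse build GRCm38.p6, written 5′ to 3′ on the strand of the gene, and capitals mark the ISRE core, GAAANNGAAA on either strand.
Ddx58 (chr4:40239796-40239863, minus strand): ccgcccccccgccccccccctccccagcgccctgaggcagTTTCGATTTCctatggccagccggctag
Ifit1 (chr19:34640745-34640853, plus strand): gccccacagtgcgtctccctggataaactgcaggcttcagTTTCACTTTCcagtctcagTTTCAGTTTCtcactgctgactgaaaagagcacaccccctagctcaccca
Ddx60 (chr8:61927994-61928116, plus strand): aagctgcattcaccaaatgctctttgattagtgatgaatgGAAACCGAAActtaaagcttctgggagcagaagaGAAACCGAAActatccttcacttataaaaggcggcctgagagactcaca
Trim30a (chr7:104465180-104465269, minus strand): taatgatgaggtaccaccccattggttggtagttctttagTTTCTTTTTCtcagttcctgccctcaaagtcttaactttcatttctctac
Isg15 (chr4:156200835-156200936, minus strand): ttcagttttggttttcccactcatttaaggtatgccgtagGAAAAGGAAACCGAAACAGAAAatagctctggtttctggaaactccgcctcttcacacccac
In Ifit1 the cores began at positions -104 and -85 counted from the annotated start. In Ddx60 they began at -53 and -19, in Trim30a at -36, and in Ddx58 at position 3 downstream of it. Isg15 held 3 overlapping cores, at -78, -72 and -66. In windows of 250 bases before to 50 after each annotated start, the core was found in 14 of the 34 windows of the members (41.2%) and in 1131 of 32851 mouse windows (3.44%). The GAS motif TTCNNNGAA, an element of interferon signalling, was found in 8 of the members' windows (23.5%) and in 8.3% of all windows, and it overlapped an ISRE core in 2 of the members' windows. Of the 39 members, 29 had a window in the table, and 13 of these had an ISRE core. Rtp4 and Oas2 were among the 10 members with no entry.

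All values are log2 of the array signal as deposited, so a difference of 1 is a doubling. They ranged from 1.8 to 18.86 over all probe sets, with array medians between 4.86 and 5.03, and replicates of a group correlated at r of 0.991 to 0.994 across probe sets. For 4 of the 8 arrays, r was higher with an array from a different group than with the replicate. CD169DTR/+ 2 Gy replicate 2 and WT 2 Gy replicate 1 lay apart from the other arrays on the first 2 principal components, which held 21.7% and 19.7% of the variance. Cdkn1a, the p53 target that serves as a check of irradiation, was at 13.24 and 13.23 in CD169DTR/+ 2 Gy, 9.79 and 9.34 in CD169DTR/+ non-irradiated, 13.06 and 13.41 in WT 2 Gy, and 7.86 and 8.39 in WT non-irradiated cells. Siglec1 lay between 3.86 and 4.12 on all 8 arrays, close to the lower quartile of an array. Kit, a marker of the sorting gate, was at 14.25 to 14.93, and 9 of the 14 macrophage and monocyte markers lay under the median of all probe sets. Of the others, Lyz2 was at 13.51 to 14.0, Ly6c2 at 12.09 to 14.9 and Cd68 at 7.57 to 8.67. Cx3cr1 and Vcam1 had means of 6.36 and 5.13 over the 8 arrays. The list thus gives no measure of purity.

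Across the 4 groups, the members stood highest in CD169DTR/+ non-irradiated cells. There the mean of 28 of the 39 members was the highest of the 4 groups, against 19.6% of all probe sets. The median level of the members was 8.18 and 8.07 in CD169DTR/+ 2 Gy, 8.76 and 8.65 in CD169DTR/+ non-irradiated, 8.18 and 7.96 in WT 2 Gy, and 8.26 and 8.35 in WT non-irradiated arrays. Both CD169DTR/+ non-irradiated arrays were thus above the other 6, which lay between 7.96 and 8.35. Replicate 1 of that group was the highest array for 19 members, and CD169DTR/+ 2 Gy replicate 2 was the lowest for 16. No member passed the test in any comparison made, so the differences below are given with their spread and read against the same counts over all 30294 probe sets tested.

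**Figure D1:**
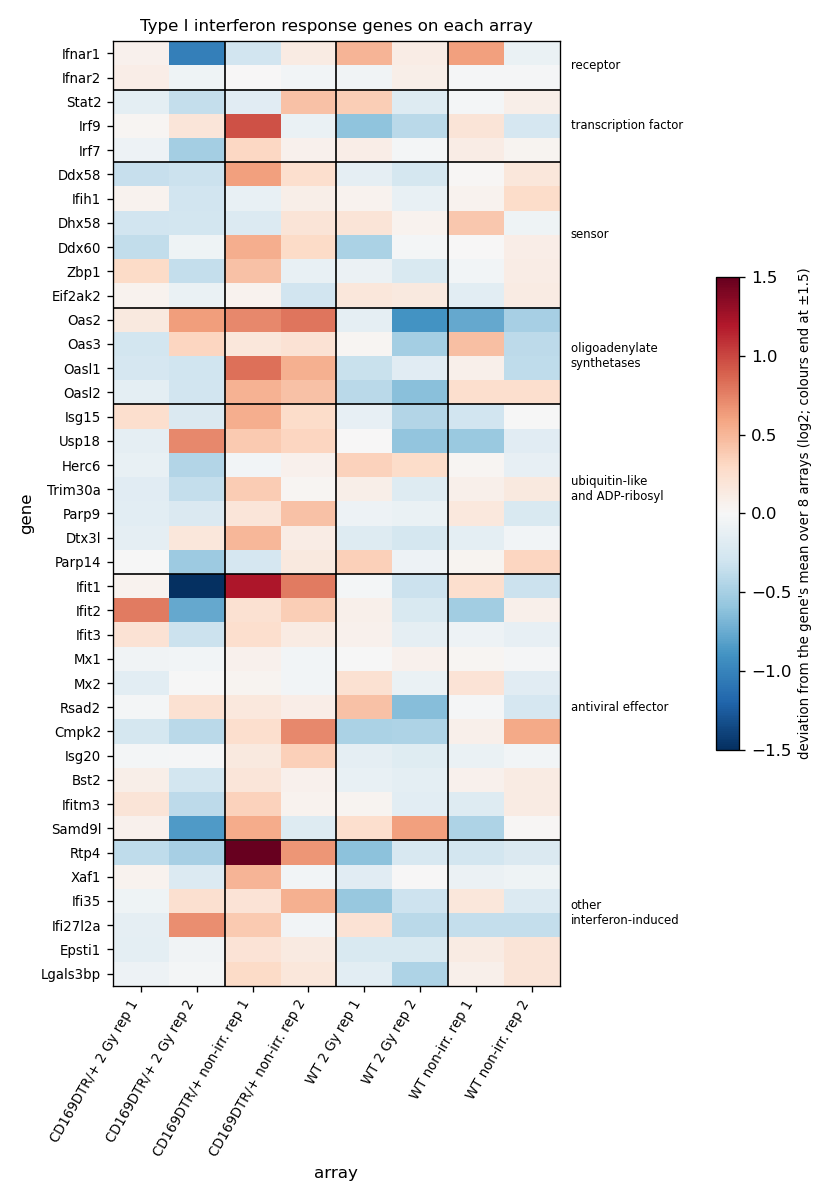
Each row is 1 of the 39 measured interferon response genes, ordered by role, and each column 1 of the 8 arrays; colour gives the log2 value minus the gene's mean over the 8 arrays. The CD169DTR/+ non-irradiated columns hold the most values above the gene's mean, with Rtp4 in replicate 1 and Ifit1 in CD169DTR/+ 2 Gy replicate 2 at the ends of the colour scale.

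The first comparison asked how LT-HSC of macrophage-depleted mice differed on day 5 after 2 Gy from those of depleted mice left non-irradiated. Of the 39 members, 36 were lower in CD169DTR/+ 2 Gy than in CD169DTR/+ non-irradiated cells, where 42.4% of all probe sets were lower. Both irradiated arrays lay below both non-irradiated arrays for 18 members (all probe sets 13.4%) and above them for 0 members (all probe sets 17.8%). The median difference was -0.285, against 0.035 over all probe sets. By limma with Benjamini-Hochberg adjustment over all probe sets, 0 members passed an adjusted p of 0.05 (all probe sets 0%). At an unadjusted p under 0.05, 11 members were lower (all probe sets 3.53%) and 0 were higher (3.24%). Among the 18169 probe sets above the dimmest 40%, to which 38 of the members belong, 47.3% were lower, 16.8% were lower without overlap, and 5.36% were lower at that unadjusted p. The count of 11 became 7 without CD169DTR/+ 2 Gy replicate 2, and likewise 7 without both arrays that lay apart.

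Among the receptor chains and transcription factors, the receptor pair did not separate the CD169DTR/+ groups. Ifnar2 lay between 13.34 and 13.50 on all 8 arrays. Ifnar1 was at 9.16 and 8.07 in CD169DTR/+ 2 Gy cells, against 8.81 and 9.22 in CD169DTR/+ non-irradiated cells, and these groups overlapped. Irf7, the factor that amplifies interferon-alpha production, was at 6.03 and 5.59 after 2 Gy and at 6.41 and 6.16 without irradiation in CD169DTR/+ cells, with no overlap (difference -0.475, unadjusted p = 0.034). Stat2 and Irf9, subunits of the ISRE-binding complex, overlapped between these groups.

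The RNA sensors included Ddx58, which encodes RIG-I. It was at 10.14 and 10.17 in CD169DTR/+ 2 Gy cells, against 11.11 and 10.74 in CD169DTR/+ non-irradiated cells. The irradiated pair was the lower one without overlap, and differed by -0.77 ± 0.155 (SE, limma), 1.71-fold, at an adjusted p of 0.516. Ddx60, a helicase that assists RIG-I-like receptors, had 6.83 and 7.14 after 2 Gy and 7.75 and 7.49 without it, again with no overlap (difference -0.635 ± 0.196 SE, adjusted p = 0.622). The other sensors differed less. Ifih1 (MDA5), Dhx58 (LGP2), Zbp1 and Eif2ak2 (PKR) had no unadjusted p under 0.05, and 5 of the 6 sensors were lower after 2 Gy.

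Among the oligoadenylate synthetase family, whose active members make the small nucleotide that switches on RNase L, all 4 genes measured were lower after 2 Gy in CD169DTR/+ cells, 3 of them without overlap. Oasl2 was at 8.10 and 7.96 in irradiated and at 8.76 and 8.68 in non-irradiated CD169DTR/+ cells. The difference was -0.69 ± 0.128 (SE), 1.61-fold, with an unadjusted p of 0.00122 and an adjusted p of 0.513. Oasl1, known in mice to restrain Irf7 translation, was at 4.94 and 4.90 after 2 Gy and at 6.02 and 5.73 without it. Its irradiated values lay near the median of an array and differed by -0.955 ± 0.188 (SE, adjusted p = 0.516).

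The ubiquitin-like and ADP-ribosylation genes were lower in 7 of 7 cases, 4 without overlap. Parp9, which works in a complex with Dtx3l, was at 6.04 and 5.99 in CD169DTR/+ 2 Gy cells and at 6.39 and 6.64 in CD169DTR/+ non-irradiated cells. That difference was -0.50 ± 0.163 (SE, adjusted p = 0.628). Trim30a, a restrainer of inflammatory signalling in mice, was at 11.18 and 11.00 after 2 Gy and at 11.73 and 11.38 without it, with a difference of -0.465 and an unadjusted p of 0.0305. Isg15, the ubiquitin-like modifier itself, was at 7.53 and 7.06 after 2 Gy and at 7.82 and 7.56 without it, which left the pairs apart by a narrow margin. Usp18, the enzyme that removes it, overlapped between the groups, at 8.61 and 9.46 in CD169DTR/+ 2 Gy and at 9.14 and 9.07 in CD169DTR/+ non-irradiated cells.

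All 11 antiviral effectors had a lower mean after 2 Gy in CD169DTR/+ cells, 4 of them without overlap (Ifit1, Cmpk2, Isg20 and Mx1). Ifit1, which binds viral RNA lacking host-type caps, was at 7.60 and 5.91 in irradiated and at 8.76 and 8.32 in non-irradiated CD169DTR/+ cells. Its fold was the largest among the members, 3.45-fold lower (difference -1.785 ± 0.524 SE, adjusted p = 0.622), and it leaned on 1 array. Without CD169DTR/+ 2 Gy replicate 2 the difference was -0.94, and without replicate 1 it was -2.63. Cmpk2, a mitochondrial nucleotide kinase that lies beside Rsad2, was at 9.02 and 8.89 after 2 Gy and at 9.54 and 10.01 without it, with no overlap (difference -0.82 ± 0.218 SE, adjusted p = 0.617). Rsad2 (viperin) overlapped, at 8.57 and 8.83 after 2 Gy and at 8.76 and 8.69 without it. Mx1, a dynamin-like GTPase of antiviral defence, stayed between 3.91 and 4.03 on all 8 arrays, at the lower quartile of an array, so that a difference could not be read from it.

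Of the 6 remaining interferon-induced genes, 5 were lower after 2 Gy in CD169DTR/+ cells. Rtp4, which helps receptors reach the cell surface, was at 8.57 and 8.46 in CD169DTR/+ 2 Gy and at 10.51 and 9.61 in CD169DTR/+ non-irradiated cells. Its non-irradiated values were the highest of all 4 groups, and the difference was -1.545 ± 0.289 (SE), 2.92-fold, with an adjusted p of 0.515. Leaving out CD169DTR/+ non-irradiated replicate 1 gave -1.095, and leaving out replicate 2 gave -1.995. Epsti1 was at 9.55 and 9.65 after 2 Gy and at 9.91 and 9.84 without it, a smaller difference of -0.275 (unadjusted p = 0.0432).

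**Figure D2:**
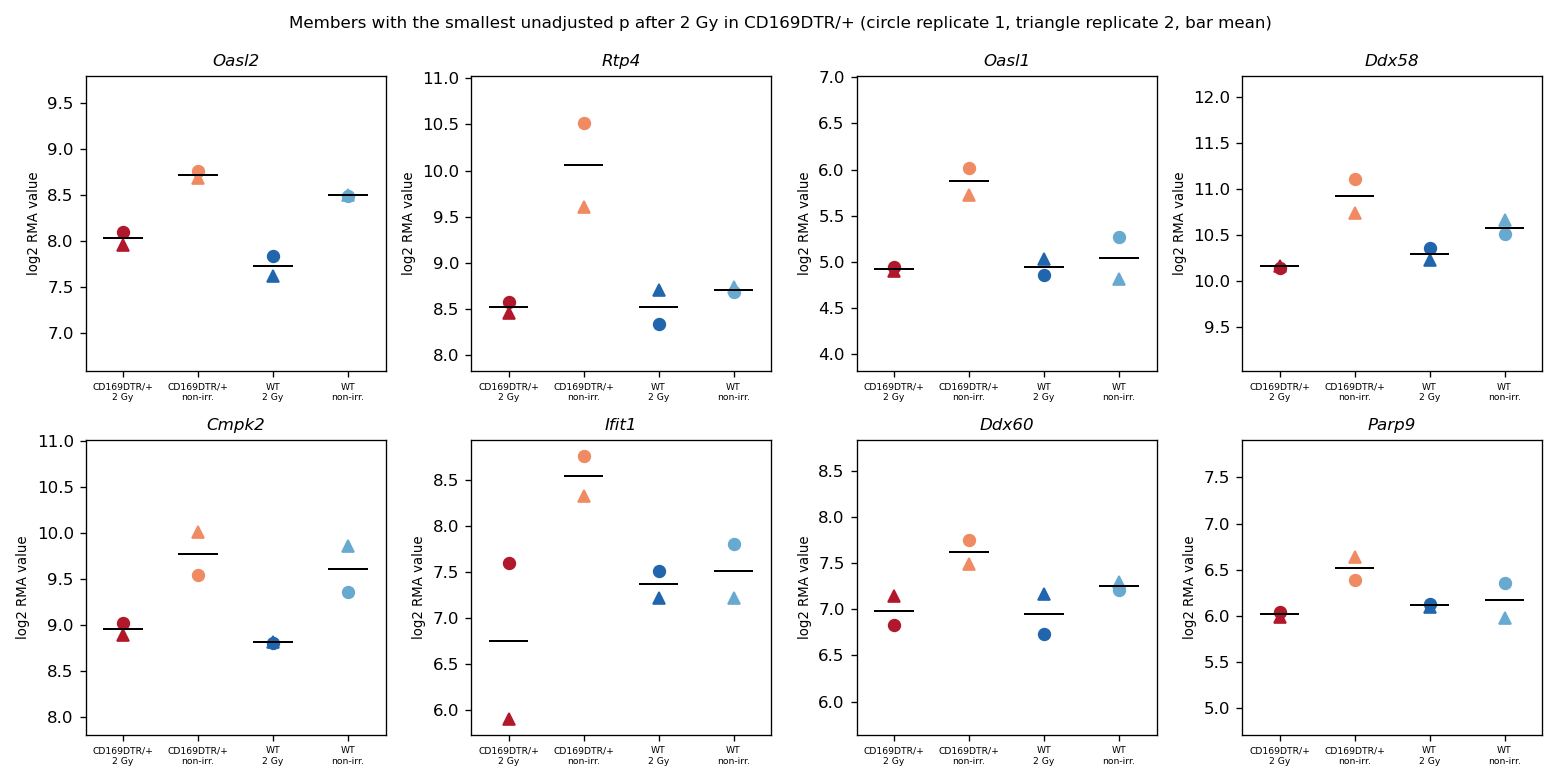
The log2 values of the 8 members with the smallest unadjusted p for 2 Gy in CD169DTR/+ cells are plotted for each array by group, with circles for replicate 1, triangles for replicate 2 and bars for the mean of 2 arrays. In each panel both CD169DTR/+ 2 Gy arrays lie below both CD169DTR/+ non-irradiated arrays, and only in the panel of Oasl2 and that of Cmpk2 do the WT means differ by a like amount.

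The second comparison, called depletion without irradiation below, asked how CD169DTR/+ cells differed from WT cells when neither was irradiated. It shares the CD169DTR/+ non-irradiated arrays with the first, so a high value there enters both with opposite sign. Of the 39 members, 32 were higher in CD169DTR/+ non-irradiated than in WT non-irradiated cells, where 57% of all probe sets were higher. Both CD169DTR/+ arrays lay above both WT arrays for 18 members (all probe sets 19.1%) and below them for 0 (11.9%). The median difference was 0.24, against 0.03 over all probe sets. No member passed the adjusted threshold of limma (0 members, all probe sets 0%), while 5 were higher at an unadjusted p under 0.05 (all probe sets 2.49%) and 0 were lower (1.89%). Above the dimmest 40% of probe sets, 55.1% were higher, 19.6% were higher without overlap, and 3.12% were higher at that p. Without CD169DTR/+ non-irradiated replicate 1, 26 members were higher and the median was 0.155. Without replicate 2 the 5 members at an unadjusted p under 0.05 became 8.

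The largest differences here were those of Oas2 and Rtp4. Oas2 was at 6.54 and 6.62 in CD169DTR/+ and at 5.05 and 5.33 in WT non-irradiated cells. The pairs were far apart, by 1.39 ± 0.28 (SE), 2.62-fold, at an unadjusted p of 0.00195 and an adjusted p of 0.936. Oasl1 was at 6.02 and 5.73 in CD169DTR/+ and at 5.27 and 4.81 in WT cells (difference 0.835 ± 0.188 SE, adjusted p = 0.937). The other family members, Oas3 and Oasl2, differed by 0.165 and 0.225, with unadjusted p-values above 0.05. Rtp4 was at 10.51 and 9.61 in CD169DTR/+ and at 8.68 and 8.74 in WT cells, 2.55-fold higher (difference 1.35 ± 0.289 SE, adjusted p = 0.936). The WT pair was tight and the CD169DTR/+ pair wide, with 0.90 as the difference when CD169DTR/+ replicate 1 was left out.

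Of the 7 ubiquitin-like and ADP-ribosylation genes, 6 were higher in CD169DTR/+ cells, 4 of them without overlap. Isg15 was at 7.82 and 7.56 in CD169DTR/+ and at 6.99 and 7.27 in WT non-irradiated cells (difference 0.56 ± 0.215 SE, adjusted p = 0.999). Usp18 was at 9.14 and 9.07 in CD169DTR/+ and at 8.19 and 8.57 in WT cells (difference 0.725, unadjusted p = 0.0618). Dtx3l was at 9.37 and 8.98 in CD169DTR/+ and at 8.72 and 8.83 in WT cells (difference 0.40, unadjusted p = 0.0574). In each of these the groups did not overlap, and without CD169DTR/+ non-irradiated replicate 1 the difference of Dtx3l was 0.205. Herc6, Trim30a and Parp14 of the same list had differences of 0.055, 0.09 and -0.24, and their groups overlapped. The antiviral exonuclease Isg20 was at 8.35 and 8.56 in CD169DTR/+ and at 8.11 and 8.16 in WT cells, a difference of 0.32 ± 0.12 (SE, adjusted p = 0.999). The sensor Ddx58 had 11.11 and 10.74 in CD169DTR/+ cells, against 10.51 and 10.66 in WT cells, and Ifit1 had 8.76 and 8.32 in CD169DTR/+ cells, against 7.80 and 7.22 in WT cells. Their unadjusted p-values were 0.0669 and 0.0924, although neither gene's groups overlapped, and without CD169DTR/+ non-irradiated replicate 1 the difference of Ddx58 was 0.155, against 0.34 with it. The receptor chains showed no such pattern, with Ifnar1 at 8.81 and 9.22 in CD169DTR/+ and at 9.71 and 9.0 in WT cells.

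**Figure D3:**
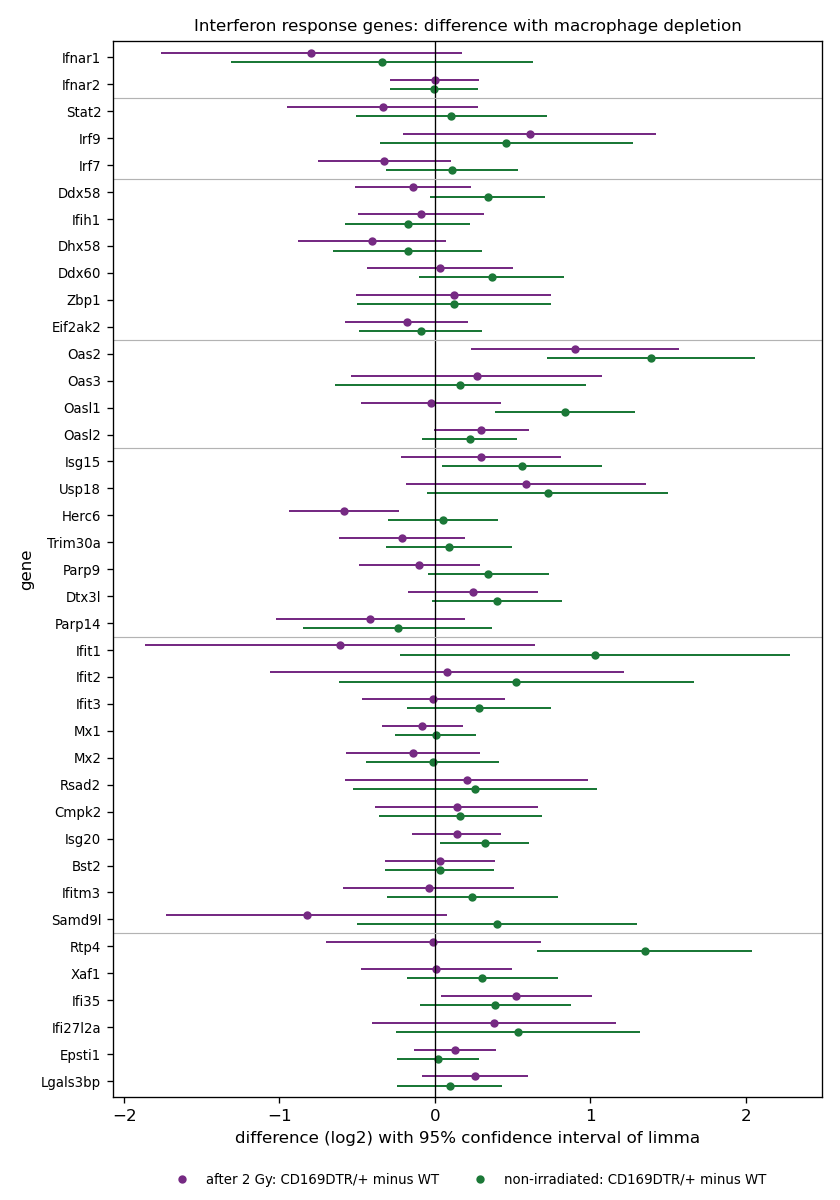
Points give the log2 difference CD169DTR/+ minus WT after 2 Gy and in non-irradiated cells for each of the 39 members, ordered by role, and lines the 95% confidence interval of limma, not adjusted for the number of genes. In non-irradiated cells 32 points lie above 0; after 2 Gy 19 lie above and 19 below.

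The third comparison asked what 2 Gy did in WT mice, whose macrophages the toxin does not target. The members divided there, with 25 lower and 14 higher in WT 2 Gy than in WT non-irradiated cells (35% of all probe sets lower), and a median difference of -0.055 against 0.075 over all probe sets. Centring each array on its median moved this split to 33 lower and 5 higher. The WT groups were apart for 12 members that were lower (all probe sets 13.2%) and 3 that were higher (31.4%). Among the 18169 probe sets left after the dimmest were set aside, to which 38 of the members belong, 44.8% were lower. Of these 18169, 18.8% were lower without overlap and 25.1% higher without overlap. At an unadjusted p under 0.05, 5.11% of them were lower and 5.05% higher. By limma 0 members passed the adjusted threshold (all probe sets 0.0099%). At an unadjusted p under 0.05, 4 were lower (all probe sets 3.21%) and 1 was higher (4.6%), and this total of 5 became 2 without WT non-irradiated replicate 2 and 3 without both arrays that lay apart.

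Oasl2 had the smallest p of any member in any comparison here. It was at 7.84 and 7.62 in WT 2 Gy and at 8.49 and 8.50 in WT non-irradiated cells, a difference of -0.765 ± 0.128 (SE), 1.70-fold, at an unadjusted p of 0.000685 and an adjusted p of 0.351. Cmpk2 was at 8.81 and 8.82 in WT 2 Gy and at 9.36 and 9.86 in WT non-irradiated cells (difference -0.795 ± 0.218 SE, adjusted p = 0.514). In all, 7 members were lower after 2 Gy without overlap both in CD169DTR/+ and in WT cells (all probe sets 3.05%), in comparisons that share no array. They were Oasl2, Cmpk2, Epsti1, Lgals3bp, Ddx58, Ddx60 and Isg20, the last 3 with WT differences of -0.29, -0.305 and -0.09. Epsti1 was at 9.47 and 9.47 in WT 2 Gy and 9.82 and 9.89 in WT non-irradiated cells (difference -0.385 ± 0.11 SE, adjusted p = 0.526). Lgals3bp, a secreted glycoprotein, was at 11.84 and 11.53 in WT 2 Gy and at 12.07 and 12.19 in WT non-irradiated cells (difference -0.445 ± 0.142 SE, adjusted p = 0.566), or -0.29 without WT 2 Gy replicate 2. Ifi35 was at 8.76 and 9.01 after 2 Gy and at 9.49 and 9.12 without it in WT cells (difference -0.42, unadjusted p = 0.0788), or -0.235 without WT non-irradiated replicate 1. Herc6, the main ligase that attaches Isg15 in mice, went the other way, at 9.44 and 9.36 in WT 2 Gy and 9.12 and 8.97 in WT non-irradiated cells (difference 0.355 ± 0.148 SE, adjusted p = 0.639). Samd9l, a growth-restraining gene of blood cells, was likewise higher, at 9.69 and 10.05 after 2 Gy and 8.98 and 9.46 without it (difference 0.65, unadjusted p = 0.131), or 0.41 higher without WT non-irradiated replicate 1.

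**Figure D4:**
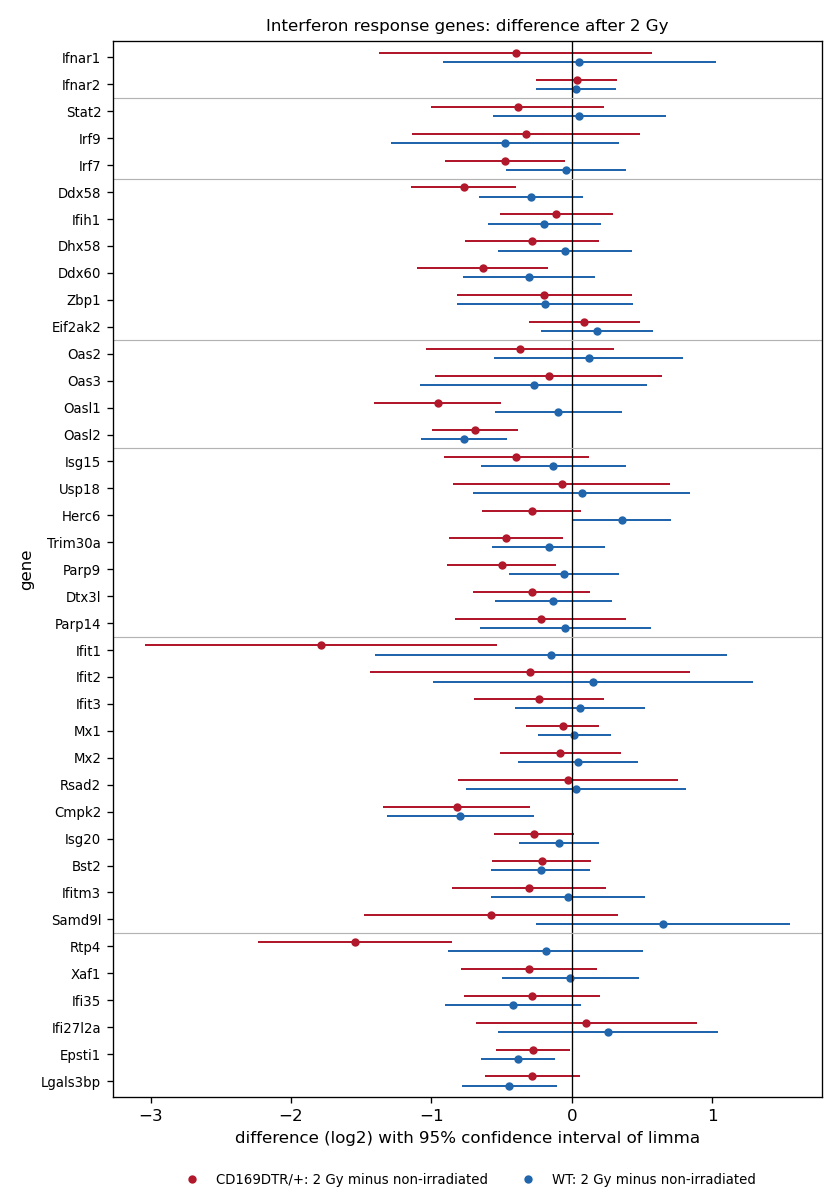
Points give the log2 difference 2 Gy minus non-irradiated in CD169DTR/+ and in WT cells for each of the 39 members, ordered by role, and lines the 95% confidence interval of limma, not adjusted for the number of genes. In CD169DTR/+ cells 36 points lie below 0, and in WT cells 25; Oasl2 and Cmpk2 lie near each other in both genotypes.

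Whether the difference after 2 Gy was itself unlike between the genotypes was tested by the interaction, the irradiation difference in CD169DTR/+ cells minus that in WT cells, which uses all 8 arrays. It was below 0 for 30 of the 39 members (57.5% of all probe sets), with a median of -0.18 against -0.05. Median centring gave 25 members below 0 and 14 above with a median of -0.085, and leaving out both arrays that lay apart gave 22 and 16 with a median of -0.055. By limma 0 members passed the adjusted threshold (all probe sets 0%), so a difference between genotypes was not detected for any single member. At an unadjusted p under 0.05, 3 members were below 0 (all probe sets 2.78%) and 0 above it (2.4%); the 3 became 8 without CD169DTR/+ 2 Gy replicate 1. They were Rtp4 at -1.36 ± 0.409 (SE, adjusted p = 0.91), Oasl1 at -0.86 ± 0.266 (SE, adjusted p = 0.913) and Herc6 at -0.64 ± 0.209 (SE, adjusted p = 0.913). Rtp4 in WT cells was at 8.34 and 8.71 after 2 Gy and at 8.68 and 8.74 without it, and Oasl1 at 4.86 and 5.03 after 2 Gy and at 5.27 and 4.81 without it, so neither gene's WT pairs showed the gap seen in CD169DTR/+ cells. Ifit1 had an interaction of -1.64 with an unadjusted p of 0.0647, and Samd9l one of -1.225 with 0.0577. Without CD169DTR/+ 2 Gy replicate 2 these became -0.795 for Ifit1 and -0.77 for Samd9l. For Oasl2 and Cmpk2 the 2 genotypes' differences were close, at -0.69 in CD169DTR/+ and -0.765 in WT cells for Oasl2, and at -0.82 in CD169DTR/+ and -0.795 in WT cells for Cmpk2.

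The last comparison set CD169DTR/+ against WT cells after 2 Gy. Of the 39, 19 were lower (53.3% of all probe sets), 19 higher (45.7%) and Ifnar2 exactly equal in CD169DTR/+ 2 Gy, with a median difference of 0. The split was 15 lower and 24 higher with median centring (median 0.065), and 13 lower and 26 higher without both arrays that lay apart (median 0.13). The groups were apart for 9 members that were lower (all probe sets 18.9%) and 9 that were higher (16%). By limma 0 members passed the adjusted threshold (all probe sets 0%), 1 was lower at an unadjusted p under 0.05 (3.71%) and 2 were higher (3.86%); these 3 became 10 without CD169DTR/+ 2 Gy replicate 1 and 5 without both arrays that lay apart. Herc6 was at 8.98 and 8.65 in CD169DTR/+ 2 Gy and at 9.44 and 9.36 in WT 2 Gy cells, 1.50-fold lower (difference -0.585 ± 0.148 SE, adjusted p = 0.619). Oas2 was at 5.97 and 6.45 in CD169DTR/+ 2 Gy and at 5.69 and 4.93 in WT 2 Gy cells (difference 0.90 ± 0.28 SE, adjusted p = 0.636). Without WT 2 Gy replicate 2 that difference was 0.52. Oas2 thus had its higher values in CD169DTR/+ cells with and without irradiation, in comparisons that share no array. Ifi35 was at 9.26 and 9.56 in CD169DTR/+ 2 Gy and at 8.76 and 9.01 in WT 2 Gy cells (difference 0.525 ± 0.202 SE, adjusted p = 0.648). Ifnar1 was at 9.16 and 8.07 in CD169DTR/+ 2 Gy and at 9.61 and 9.21 in WT 2 Gy cells, and Samd9l at 9.50 and 8.59 in CD169DTR/+ 2 Gy and at 9.69 and 10.05 in WT 2 Gy cells. Both were lower in CD169DTR/+ cells without overlap, by differences of -0.795 for Ifnar1 and -0.825 for Samd9l, which became -0.25 and -0.37 without CD169DTR/+ 2 Gy replicate 2. Rtp4, the gene furthest apart without irradiation together with Oas2, differed by -0.01 here.

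The remaining members separated the groups little or in part. Irf9 was at 8.15 and 8.30 in CD169DTR/+ 2 Gy, 9.08 and 8.02 in CD169DTR/+ non-irradiated, 7.52 and 7.71 in WT 2 Gy, and 8.31 and 7.87 in WT non-irradiated cells. After 2 Gy both CD169DTR/+ arrays lay above both WT arrays, while its non-irradiated pairs were wide. Stat2 was at 7.67 and 7.46 in CD169DTR/+ 2 Gy, 7.65 and 8.25 in CD169DTR/+ non-irradiated, 8.18 and 7.62 in WT 2 Gy, and 7.79 and 7.90 in WT non-irradiated cells. Dhx58 was at 7.57 and 7.58 in CD169DTR/+ 2 Gy, 7.66 and 8.05 in CD169DTR/+ non-irradiated, 8.05 and 7.91 in WT 2 Gy, and 8.26 and 7.80 in WT non-irradiated cells. Its CD169DTR/+ 2 Gy pair was the lowest of the 4, without overlap with any other group. Ifih1 lay between 9.90 and 10.47, Zbp1, a sensor of left-handed nucleic acid, between 6.16 and 6.95, and Eif2ak2, which halts translation on double-stranded RNA, between 8.65 and 9.10 over the 8 arrays.

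Ifit2, a further RNA-binding effector, was at 9.37 and 7.83 in CD169DTR/+ 2 Gy, 8.82 and 8.97 in CD169DTR/+ non-irradiated, 8.67 and 8.37 in WT 2 Gy, and 8.07 and 8.67 in WT non-irradiated cells. Like Ifit1, it had its widest replicate pair in CD169DTR/+ 2 Gy cells, with replicate 2 the lower array. Samd9l and Ifnar1 had that shape too, at 9.50 and 8.59 for Samd9l in CD169DTR/+ 2 Gy cells. Ifit3 lay between 5.69 and 6.26; it and Ifit3b are near-identical copies in the mouse, so their probes may share signal. Bst2, the tetherin that holds budding virus at the membrane, lay between 14.46 and 14.91, and Ifitm3, which blocks virus entry from endosomes, between 13.05 and 13.79. Mx2 lay between 4.38 and 4.78, under the median of an array. Oas3 lay between 6.64 and 7.60 and Parp14, a mono-ADP-ribosyltransferase, between 6.82 and 7.72, both with overlap between CD169DTR/+ and WT non-irradiated cells. Xaf1, a partner of the caspase inhibitor Xiap, lay between 7.48 and 8.19, with its highest value in CD169DTR/+ non-irradiated replicate 1. Ifi27l2a was at 4.63 and 5.47 in CD169DTR/+ 2 Gy, 5.16 and 4.73 in CD169DTR/+ non-irradiated, 4.98 and 4.36 in WT 2 Gy, and 4.41 and 4.41 in WT non-irradiated cells, near or under the median of an array on most arrays.

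The members were also divided by whether the promoter window held an ISRE core. For 2 Gy in CD169DTR/+ cells, the median difference was -0.305 over the 13 members with a core, -0.30 over the 16 with a window but no core, and -0.208 over the 10 with no window. For depletion without irradiation the medians were 0.24 with a core, 0.265 with a window but no core, and 0.235 with no window. For 2 Gy in WT they were -0.145, -0.092 and -0.012 in these same classes, for depletion after 2 Gy -0.04, 0.105 and -0.045, and for the interaction -0.28, -0.167 and -0.165. None of these differences between classes was tested. Oasl1, Oasl2 and Cmpk2 were among those whose windows did not hold these letters.

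The wider interferon pathway was read from a list of 107 other genes, of which 97 were measured, and 0 of them passed the adjusted threshold of limma in any comparison. For 2 Gy in CD169DTR/+ cells, 52 were lower and 45 higher (42.4% of all probe sets lower), and 9 were lower and 0 higher at an unadjusted p under 0.05 (all probe sets 3.53% and 3.24%). All 9 belonged to the 51 further interferon-stimulated genes of that list. Among them, Uba7, the activating enzyme of Isg15, was at 8.79 and 9.03 in CD169DTR/+ 2 Gy and at 9.52 and 9.47 in CD169DTR/+ non-irradiated cells (difference -0.585, unadjusted p = 0.0026). In WT cells it was at 9.04 and 9.09 after 2 Gy and at 9.42 and 9.46 without it. It was thus lower without overlap in both genotypes. Ifitm1, a membrane protein that blocks virus entry, was at 8.06 and 8.42 in CD169DTR/+ 2 Gy and at 9.16 and 8.73 in CD169DTR/+ non-irradiated cells (difference -0.705). Slfn2, a Schlafen gene tied to immune cell quiescence in mice, was at 5.82 and 6.26 after 2 Gy and at 6.68 and 7.09 without it in CD169DTR/+ cells (difference -0.845). Trim12c, Helz2 and Ifit3b had differences of -0.81, -0.40 and -0.415 there, also without overlap. For depletion without irradiation 5 pathway genes were higher and 3 lower at that p (all probe sets 2.49% and 1.89%). For 2 Gy in WT 4 were higher and 5 lower (all probe sets 4.6% and 3.21%), and for depletion after 2 Gy 4 were higher and 3 lower (all probe sets 3.86% and 3.71%). Trafd1 had the largest pathway difference for 2 Gy in WT, -0.985. It was at 8.04 and 8.01 after 2 Gy and at 9.38 and 8.64 without it. Mov10 had the largest for depletion after 2 Gy, 1.075, at 9.63 and 9.46 in CD169DTR/+ and at 8.43 and 8.51 in WT cells.

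Upstream of these genes, the kinase Jak1 was at 13.08 and 13.06 in CD169DTR/+ non-irradiated and at 13.58 and 13.51 in WT non-irradiated cells, lower without overlap (difference -0.475, unadjusted p = 0.00741). Irf2, which competes at interferon response elements, was also lower there, at 10.59 and 10.24 in CD169DTR/+ and at 10.85 and 11.26 in WT non-irradiated cells (difference -0.64, unadjusted p = 0.0135). Ifngr2, listed with Jak1 among receptors and kinases, was higher in that comparison without overlap. Its values were 7.94 and 7.77 in CD169DTR/+ and 7.15 and 7.18 in WT non-irradiated cells (difference 0.69). Tyk2, the partner kinase of Ifnar1, lay between 6.16 and 6.74 and Irf3, the factor that starts interferon-beta transcription, between 9.36 and 10.26 over the 8 arrays. The interferons themselves gave little signal. Ifnb1 was at 4.27 and 4.67 in CD169DTR/+ 2 Gy, 4.34 and 3.95 in CD169DTR/+ non-irradiated, 4.81 and 4.21 in WT 2 Gy, and 4.20 and 4.40 in WT non-irradiated cells, under the median of each array. Of the 18 interferon ligand genes, 16 were higher in WT 2 Gy than in WT non-irradiated cells, with a median difference of 0.25. In that comparison 64.2% of all probe sets were higher, and 54.5% of the 18169 left after the dimmest were set aside. The share among the dimmest was thus above 64.2%. Over the 8 arrays the ligand genes had means of only 3.21 to 5.29. Whether their count exceeds that for probe sets of like signal was not tested.

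Markers of other cell types moved between the groups as well. The mean level of the 11 neutrophil and granulocyte progenitor markers was 8.67 to 9.59 in CD169DTR/+ 2 Gy, 8.99 to 9.58 in CD169DTR/+ non-irradiated, 9.72 to 10.4 in WT 2 Gy, and 7.65 to 8.61 in WT non-irradiated arrays. That of the 6 erythroid markers measured was 7.59 to 8.46 in CD169DTR/+ 2 Gy, 8.49 to 9.70 in CD169DTR/+ non-irradiated, 8.06 to 8.80 in WT 2 Gy, and 8.90 to 9.14 in WT non-irradiated arrays. The 6 mast cell and basophil markers were at 8.68 to 9.25 in CD169DTR/+ 2 Gy, 7.06 to 8.21 in CD169DTR/+ non-irradiated, 7.77 to 8.69 in WT 2 Gy, and 8.65 to 8.99 in WT non-irradiated arrays. The 6 megakaryocyte markers measured were at 10.3 to 11.0 in CD169DTR/+ 2 Gy, 9.73 to 10.1 in CD169DTR/+ non-irradiated, 10.1 to 11.3 in WT 2 Gy, and 10.3 to 10.4 in WT non-irradiated arrays. The 14 macrophage and monocyte markers lay between 5.87 and 6.37 on all arrays, the 11 B, T and NK cell markers measured between 6.0 and 6.63, the 9 LT-HSC markers measured between 9.26 and 9.74, and the 10 dendritic cell markers, which include the member Bst2, between 6.18 and 6.31. In CD169DTR/+ 2 Gy against CD169DTR/+ non-irradiated arrays, the erythroid mean was lower and the mast cell and megakaryocyte means higher, without overlap. The largest erythroid difference was that of Car1, -4.105. Klf1 and Car2 were also lower without overlap, and Epor, Tfrc and Slc4a1 lower with overlap. The largest megakaryocyte difference was that of Ppbp, 2.4. Pf4 was also higher without overlap, Gp9, Vwf and Gp5 were higher with overlap, and Itga2b differed by -0.14 with overlap. All mast cell and basophil markers were higher, with overlap only for Fcer1a. The mean of the dendritic cell markers was lower in this comparison as well. It was at 6.18 and 6.20 in CD169DTR/+ 2 Gy and at 6.31 on both CD169DTR/+ non-irradiated arrays. That mean rested mostly on Flt3, with a difference of -1.63. Xcr1, Clec9a, Itgax and Siglech were higher, by 0.54, 0.29, 0.245 and 0.04. Bst2, Tcf4, Ccr9, Irf8 and Zbtb46 differed by -0.215 to -0.075, so the list did not move as a whole. In CD169DTR/+ against WT non-irradiated arrays, the mean of the neutrophil markers was higher and those of the mast cell and megakaryocyte markers lower, without overlap. The megakaryocyte mean rested mostly on Ppbp, with a difference of -2.285. Gp9 was higher by 0.235, and Pf4, Itga2b, Vwf and Gp5 differed by -0.225 to -0.055 with overlap. The mean of the LT-HSC markers was lower there too, at 9.32 to 9.48 in CD169DTR/+ and 9.53 to 9.58 in WT non-irradiated arrays. Of these markers, Kit, Hlf, Mecom and Ctnnal1 were lower without overlap. Slamf1, Procr, Fgd5 and Tek differed by -0.19 to -0.045 with overlap, and Hoxb5 was higher by 0.18 with overlap. The part of these cell types in the interferon gene values was not tested.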

How the data were processed

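RNA of sorted LT-HSC was hybridised to 8 Affymetrix arrays, 2 for each of 4 groups. The deposited values are log2 intensities made by the authors with RMA, per the submitters' processing notes, a method that corrects background, normalises between arrays and summarises each probe set. Its version and the array's genome build are not given in the sources used here. Of 40161 probe sets, 30294 carried 1 symbol in the platform annotation and were tested, 2145 carried several and 7722 none. Symbols were updated through RefSeq for 827 of 22546 matched probe sets.

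Group means were fitted on all 8 arrays with limma 3.58.1 (lmFit and eBayes, two-sided) in R 4.3.3, giving 4 residual degrees of freedom, 2.59 more from the prior, and 0.182 as the median residual SD. P-values were adjusted by Benjamini-Hochberg over the 30294 probe sets within each of 5 comparisons, with 0.05 as the threshold. The fit was also run on simulated data, and the outcome is not reported here. The members, the lists and the tests were chosen with earlier results of these data known. Full statistics are given for members with the 8 smallest unadjusted p in a comparison (fewer where values suffice), and pathway genes were named if unadjusted p was under 0.05 and groups did not overlap, at most 6 a comparison, of which the text gives a choice. Promoter windows were scanned on both strands.

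Alternatives were robust hyperparameters with an intensity trend, leaving out the dimmest 40% of probe sets, cyclic loess, median centring, a block for the replicate number, only the compared groups, the mean of a gene's probe sets, and each array left out. Same-numbered arrays deviated together at r over 0.1 in 1 of 6 pairs of groups, so they were not taken as paired. The number of arrays limits the precision.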

Additional observations from a re-analysis of the deposited data

How the results depend on the processing

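In none of the 79 combinations of setting and comparison did a member pass the adjusted threshold of limma, and the smallest adjusted p was 0.0956, for Ifit1 in CD169DTR/+ without CD169DTR/+ 2 Gy replicate 1. Followed here were 40 differences, those of the 8 members with the smallest unadjusted p in each of 5 comparisons. They kept their sign in all 632 alternatives. Many settings could not change a difference, such as the block, only the compared groups, or leaving out an array of a group not compared. Nor could leaving out 1 array reverse a sign where the groups did not overlap, so the count does not measure stability. The other members were not followed singly. With the replicate block 0 members were called by limma, and the smallest adjusted p was 0.449, for 2 Gy in WT. Each group held 1 array of each replicate number, so the block could not change the medians (-0.285 for 2 Gy in CD169DTR/+). The numbers did not pair the arrays, with r from -0.088 to 0.159.

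For 2 Gy in WT, the median of the members was -0.175 with median centring (33 lower, 5 higher; 26 and 13 with cyclic loess), -0.165 without both arrays that lay apart, and -0.165 to -0.015 when each array was left out. The members at an unadjusted p under 0.05 numbered 3 without both arrays and 2 to 5 with each left out. For 2 Gy in CD169DTR/+ they numbered 7 and 7 to 16, with medians of -0.45 to -0.265, and 31 members were lower and 8 higher without both arrays. For depletion without irradiation they numbered 3 with an intensity trend and robust hyperparameters and 4 to 8 with each array left out, with medians of 0.155 to 0.265. For depletion after 2 Gy they numbered 5 with median centring, 5 with only the compared groups, 5 without both arrays and 2 to 10 with each left out. Its median was 0.13 without both arrays and -0.08 to 0.08 with each left out. For the interaction they numbered 2 to 8, with a median of -0.055 without both arrays and -0.38 to -0.12 with each left out. Leaving out both arrays was chosen after seeing the data, and the cause of these shifts was not tested. The remaining array of a pair was then taken to vary as much as the other groups do.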
